A study of Mus musculus with 11 samples.

Results

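Undifferentiated spermatogonia, the male germ cells that include the stem cells of the testis, were taken from single-cell RNA profiles of adult mouse testis as the wells with the highest score for 8 marker genes. The score was the mean of ln(1 + UMIs per 10000) over Gfra1, Ret, Egr4, Etv5, Zbtb16, Sdc4, Nanos3 and Lin28a, where a UMI (unique molecular identifier) is a short tag that marks 1 captured RNA molecule. The top 4.5% of wells with at least 3000 UMIs were chosen in each mouse. This gave 55 wells of 1228 kept: 21 of 475 in mouse1, 12 of 273 in mouse2 and 22 of 480 in mouse3. All cells were live and carried green fluorescence from a Dazl-GFP reporter, which is active in germ cells, and each was sorted alone into a well of a plate. No mouse was treated, and age beyond adult and strain background were not given. The 8 libraries of mouse1 (plates 3 and 5) were made by CEL-Seq1 and cannot be told apart in the tables, and those of mouse2 (plate 6) and mouse3 (plates 8 and 10) by CEL-Seq2, so protocol and mouse cannot be told apart. Plate 8 was labelled as sorted by a gate and the other plates as index-sorted, in which the sorter records the readings of each cell. The replicate is the mouse (n = 3).

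Spermatogonia divide at the wall of the seminiferous tubule next to Sertoli cells, the somatic cells that nurse the germ line. Sertoli cells secrete GDNF, which binds GFRA1 and its partner RET on the stem cells, and FGFs act beside it. Signals from these receptors induce transcription factors such as ETV5, EGR4 and BCL6B that keep cells in the stem state. Cells on the way out of that state, the progenitors, gain Neurog3 and Rarg, respond to retinoic acid, and become differentiating spermatogonia marked by KIT before they enter meiosis.

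Since the score chose the wells, the levels of its 8 genes describe the choice. The lowest score inside was 0.366 in mouse1, 0.819 in mouse2 and 0.682 in mouse3, and the next wells outside had 0.331, 0.807 and 0.677. The median score of kept wells was 0 in each mouse. The lowest members of mouse1 thus had few marker UMIs: its last well had 6004 UMIs, 2 of them Sdc4 and 2 Zbtb16, and none of the other 6 genes. Members held 702733 UMIs in mouse1, 321638 in mouse2 and 678730 in mouse3, with medians of 27029, 19698 and 28761 per well and a range of 3584 to 168776. All other kept wells had medians of 20551, 12481 and 18449.

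Whether the markers rise in the same wells was checked by leaving each out of the score in turn. When members were chosen by the other 7 genes, the left-out gene was higher in the chosen wells than in all other wells in 3 of 3 mice for each of the 8 genes, with log2 differences from 3.86 ± 0.19 (SE) for Lin28a to 6.10 ± 0.47 for Nanos3 (edgeR quasi-likelihood test with the mouse as a block, adjusted p at most 1.6e-07). These choices shared 51 to 55 of the 55 wells. The 8 genes were picked together as markers, with earlier results of these data known. The values thus show that the markers rise together, and they cannot test the label itself. Gfra1, the GDNF co-receptor, was thinly counted. It gave 8, 6 and 13 UMIs in wells chosen without it (16.4 ± 4.35 CPM, SD, n = 3, where CPM are the UMIs of a gene per 1000000 UMIs of the summed wells), against 0.328 ± 0.164 in the others. Zbtb16, which encodes the stem cell factor PLZF, reached 187, 149 and 162 CPM in mouse1, mouse2 and mouse3, against 5.67 ± 0.88 in the others. No mouse's chosen wells overlapped the other wells for any of the 8 genes, as the plot of left-out markers shows.

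**Figure D1:**
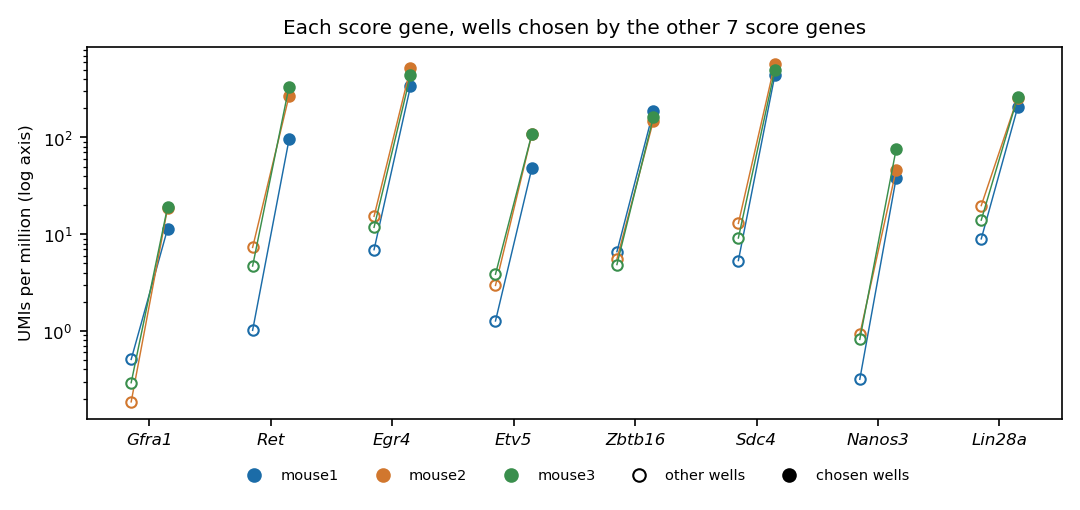
CPM (log axis) of each score gene in summed wells of each mouse, with wells chosen by the other 7 genes (filled) and all other kept wells (open); lines join the 2 values of a mouse. Each filled point lies above all open points of its gene, and Gfra1 is lowest at 11.4 to 19.2 CPM.

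Members were compared with all other kept wells and with 55 early differentiating spermatogonia. The latter were the top 4.5% of the remaining wells of each mouse by Dlk1 and Dnmt3b. Later differentiating wells (by Pou3f1 and Crabp1) and pachytene wells (by Piwil1, Ldhc, Hspa2 and Adam3, genes of mid-prophase spermatocytes) were chosen likewise for reference, 55 of each. UMIs were summed per mouse and class. Genes with few counts were filtered out before testing, and a gene counted enough in members alone stayed in. A gene rare outside members could thus be tested only because it was high in members, and only be called higher. Of 11970 genes tested against all other wells, 3323 (27.8%) were higher and 4349 (36.3%) lower in members at an adjusted p under 0.05, 64.1% in all. Against the early differentiating wells, 1076 of 10909 genes (9.86%) were higher and 826 (7.57%) lower, 17.4% in all. Without mouse3 these last counts were 383 and 282, without mouse2 602 and 495, and without the mouse as a block, which pairs the classes of a mouse, 471 and 320. Both comparisons share the member wells, and their values are given side by side.

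Genes of GDNF and FGF signalling were higher in the undifferentiated wells in both comparisons. Of 19 genes listed, 13 could be tested against all other wells: 10 were higher (background 27.8%), none lower, with a median log2 difference of 2.58 against -0.18 over all genes tested. Against early differentiating wells, 8 of 12 were higher (background 9.86%) and none lower, with a median of 1.36 against 0.01 over all genes. Without the block the latter count was 3. Genes of the list that were rare outside members, such as Dusp6 and Egr2, passed the filter only through members. The shares of the list are thus in part fixed by the filter. Dusp6, a phosphatase that is itself induced by ERK and dampens it, gave 21.3, 106 and 115 CPM in mouse1, mouse2 and mouse3 and 2.88 ± 2.52 (SD, n = 3) in early differentiating wells. It was 53.6-fold higher than in other wells (log2 5.75 ± 0.43, adjusted p = 1.9e-11 by edgeR) and 27.8-fold higher than in early differentiating wells (4.80 ± 0.72, adjusted p = 0.00011). Mouse1 was the lowest of the members, and even it lay above every value of the 4 other classes. Egr2, an immediate early transcription factor, gave 24.2, 46.6 and 95.8 CPM in members and 1.89 ± 1.66 in early wells. Its log2 difference was 5.62 ± 0.46 and 4.56 ± 0.70 in these comparisons, with an adjusted p of 0.00014 for the latter by edgeR and 0.0515 without mouse3. Etv4, a relative of Etv5, gave 21.3, 56.0 and 50.1 CPM in members, and was 27-fold higher than in other wells. Against early wells, which had 1, 1 and 13 UMIs, it was 5.42-fold higher (log2 2.44 ± 0.61), and lost the call without mouse2 (adjusted p = 0.068) or mouse3 (adjusted p = 0.059).

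Other genes of the list were higher than in early wells by less. Fgfr1, an FGF receptor, was higher than in early wells by 0.92 ± 0.28 on the log2 scale, Fos by 1.49 ± 0.49 and Pik3r1, a regulatory subunit of the PI3 kinase, by 1.54 ± 0.53, each with an adjusted p between 0.028 and 0.049 by edgeR. All 3 calls were lost without mouse2 (adjusted p of 0.11 to 0.28) and without mouse3 (0.31 to 0.37), and that of Pik3r1 also without the wells rich in Sertoli or spermatid markers (0.085). Mycn, a growth-promoting transcription factor, gave 112, 99.5 and 91.3 CPM in members, 46.0 ± 11.8 in early wells and 91.8 ± 23.8 in later differentiating wells. It was higher than in early wells by 1.23 ± 0.27 (adjusted p = 0.0035, or 0.099 without mouse3), and the mice did not overlap between the 2 classes. The level of Mycn in later differentiating wells overlapped that of members. Spry4, a feedback inhibitor of the pathway, had 4, 4 and 10 UMIs in members and was called higher than in other wells (log2 3.07 ± 0.79, adjusted p = 0.0015), a call lost without mouse3 (adjusted p = 0.070). Etv1, a further relative of Etv5, gave no UMI in any of the 55 wells.

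Start-site sequences of 3 genes are shown, since Egr2, Egr4 and Dusp6 are known as short-lived transcripts of growth factor signalling. Egr2 and Dusp6 were higher in these wells. Egr4 is a score gene, so its level there describes the choice of wells. The sequences are the 150 bases before a RefSeq start site (GRCm38.p6). Capitals mark the match to a CArG box, the site of serum response factor, in Egr2 (chr10:67537719-67537868, plus strand), and to the ETS-family core CGGAAG, read on either strand, in Dusp6 (chr10:99263081-99263230, plus strand) and Egr4 (chr6:85513590-85513739, minus strand). The matches begin 72, 62 and 58 bases before the start site.
Egr2: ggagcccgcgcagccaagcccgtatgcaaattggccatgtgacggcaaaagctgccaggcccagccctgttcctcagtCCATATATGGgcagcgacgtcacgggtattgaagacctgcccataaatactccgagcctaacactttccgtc
Dusp6: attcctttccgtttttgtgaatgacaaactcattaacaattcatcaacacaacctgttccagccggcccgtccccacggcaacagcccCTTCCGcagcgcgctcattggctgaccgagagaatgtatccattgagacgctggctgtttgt
Egr4: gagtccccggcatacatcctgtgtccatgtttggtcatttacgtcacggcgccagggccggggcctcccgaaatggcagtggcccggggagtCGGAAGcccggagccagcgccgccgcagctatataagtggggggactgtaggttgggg
A CArG box lay in 1.63% of 32851 promoters of the same length, and CGGAAG in 16.9%. The start sites of Etv5, Gfra1, Mycn and Spry2 held neither motif in this window, and that of Fos held CGGAAG. Egr2 has 5 listed start sites, 4 of them with a CArG box. The windows that begin at 67537719, 67537720 and 67537780 overlap and hold the same box. Only the window that begins at 67537416 holds another, so the sites are not independent matches. A match describes the letters and was not tested as a site of binding.

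**Figure D2:**
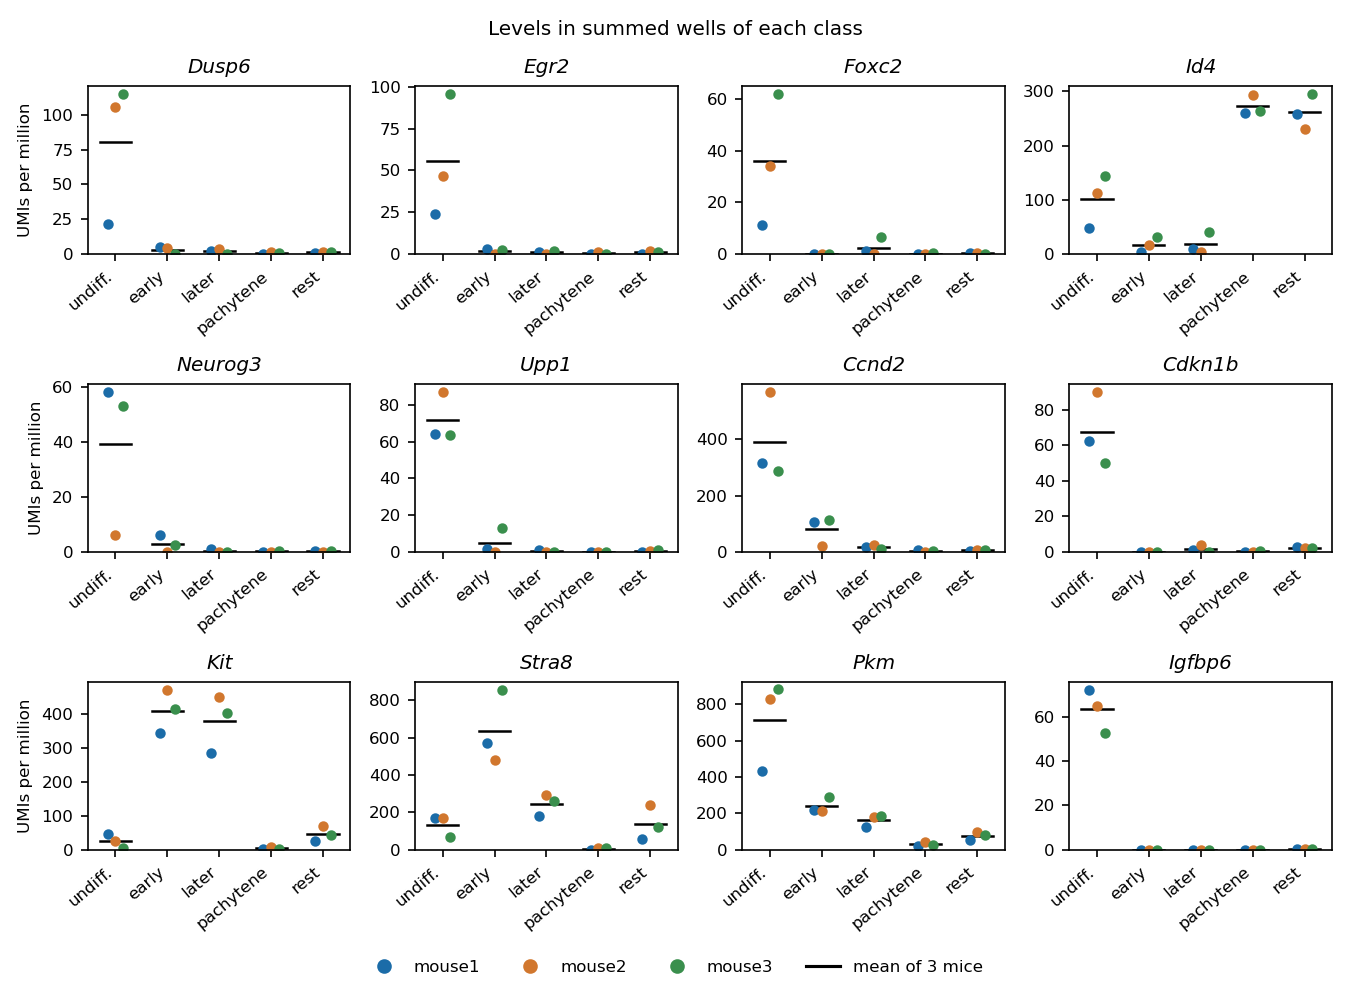
CPM of 12 genes in summed wells of each class and mouse (points; undiff., the undifferentiated members; black lines, means of 3 mice; linear axes from 0). Dusp6, Egr2, Foxc2, Upp1, Cdkn1b and Igfbp6 are at most 12.7 outside the members, Kit and Stra8 peak in differentiating wells, and Id4 is highest in pachytene and remaining wells.

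Factors of the stem cell state were higher than in other wells, several of them at a few UMIs. Of 19 listed, 13 could be tested against all other wells, of which 11 were higher (background 27.8%), with Id4 lower and Bmi1 at -0.36 ± 0.16 not past the threshold. Foxc2, Eomes and Nanos2 were counted in 11, 32 and 3 of the 1173 other wells. Such genes passed the filter only through members, so only a higher call was open to them. The share of 11 in 13 is thus in part fixed by the filter. Foxc2, a marker of quiescent stem cells, gave 8, 11 and 42 UMIs (11.4, 34.2 and 61.9 CPM), and 0 in early differentiating wells of all 3 mice. Against other wells it was 63.7-fold higher (log2 5.99 ± 0.59, adjusted p = 3.2e-09 by edgeR). Eomes, found in a subset of Gfra1-positive cells, gave 8, 3 and 21 UMIs, and was 19.5-fold higher. Nanos2, an RNA-binding repressor of differentiation, had 12 UMIs in members against 3 in all 1173 other wells, a ratio per UMI sequenced of 89.9 (exact interval 24.3 to 497, which covers counting error only). Pou5f1 was higher by 4.84 ± 0.64 on the log2 scale, with 8, 9 and 6 UMIs. Tspan8, a surface protein of transplantable stem cells, was higher by 4.67 ± 0.72, with 3, 5 and 9. Bcl6b gave 2, 10 and 21 UMIs, and was higher by 2.51 ± 0.54. At this depth most single wells had no UMI of these genes: Foxc2 was counted in 19 of 55 wells, Eomes in 13 and Nanos2 in 8.

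Id4, which marks the stem cells most able to regenerate the testis after transplantation, went in opposite directions in the 2 comparisons. Members had 48.4, 112 and 144 CPM in mouse1, mouse2 and mouse3, early differentiating wells 3.1, 15.9 and 31.8, and pachytene wells 260, 294 and 264. Every mouse's members lay above all early wells and below all pachytene wells. Id4 was thus 5.71-fold higher than in early wells (log2 2.51 ± 0.44, adjusted p = 0.00049 by edgeR) and 3.12-fold lower than in all other wells (-1.64 ± 0.21, adjusted p = 3.1e-07). Its relative Id2 had 1 UMI in members against 31 in early wells, a ratio of 0.0318 (exact interval 0.00078 to 0.191), which was called lower (adjusted p = 0.0031). Id1 and Id3 were higher than in other wells, by 2.52 ± 0.45 and 2.45 ± 0.69. Id3 was counted in 8 of 55 members, and its call was lost with wells weighted equally (adjusted p = 0.0785 by limma). Against early wells Id1 was not called (0.495 ± 0.531, adjusted p = 0.574 by edgeR), and Id3 could not be tested.

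More broadly expressed factors changed by less against the early wells. Of 7 stem cell factors that could be tested there, 3 were higher (background 9.86%): Id4, Sall4 (log2 1.21 ± 0.22, adjusted p = 0.00068) and Foxo1 (1.05 ± 0.19, adjusted p = 0.00072). Sall4, a zinc finger factor, gave 421, 519 and 457 CPM in members and 193 ± 42.8 in early wells, with no overlap between mice. Foxo1, which shuttles with PI3 kinase activity, gave 488, 668 and 561 against 269 ± 9.46. Bmi1 was lower (-0.57 ± 0.17, adjusted p = 0.020), a call lost without mouse1 (adjusted p = 0.097) or mouse3 (0.17). Utf1 and Dmrt1 did not pass, at 0.80 ± 0.65 and -0.33 ± 0.14.

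Progenitor genes were high in the same summed wells. All 6 listed were higher than in other wells (background 27.8%), and all 4 that could be tested against early wells were higher (background 9.86%). Neurog3 and Upp1 were counted in 13 and 16 of the 1173 other wells. They passed the filter only through members, so a higher call was the only one open to them there. Neurog3, the progenitor transcription factor, gave 41, 2 and 36 UMIs in mouse1, mouse2 and mouse3 (58.3, 6.2 and 53.0 CPM), so that mouse2 was near the early wells at 2.93 ± 3.13. It was 96.5-fold higher than in other wells (log2 6.59 ± 0.56, adjusted p = 2.1e-10 by edgeR). In mouse1, 3 wells held 30 of the 41 UMIs. Upp1, a uridine phosphorylase, was more even, with 64.0, 87.1 and 63.4 CPM, and was 12.8-fold higher than in early wells (log2 3.67 ± 0.62, adjusted p = 0.00044), without overlap between mice. Ddit4, an inhibitor of mTORC1, gave 33, 12 and 6 UMIs, and 1, 0 and 0 in early wells. Sox3, Rarg and Sohlh1 were higher than in early wells by 0.88 ± 0.25, 1.19 ± 0.32 and 0.67 ± 0.23, and all 3 calls were lost without mouse3 (adjusted p of 0.18 to 0.34), those of Sox3 and Sohlh1 also without mouse2 (0.083 and 0.082), and that of Sohlh1 also without mouse1 (0.10). Those of Rarg and Sohlh1 were lost as well without the wells rich in Sertoli or spermatid markers (0.077 and 0.079).

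Several genes of differentiating spermatogonia were lower than in early wells, while the list as a whole was not lower than in all other wells (median log2 difference 0.24). Kit, the receptor that defines them, gave 45.5, 24.9 and 4.4 CPM in members of mouse1, mouse2 and mouse3, against 344, 473 and 416 in early and 287, 451 and 405 in later differentiating wells. It was 15.5-fold lower than in early wells (log2 -3.96 ± 0.37, adjusted p = 8.9e-07 by edgeR), and the classes did not overlap. In mouse1, 3 of the 21 wells held 27 of the 32 Kit UMIs. They had scores of 0.390, 0.492 and 0.540, the lowest of all 55 but for the last well, and held 10, 29 and 18 UMIs of Stra8 in that order, with 1 UMI of Ret and 1 of Etv5 among them. Stra8, which responds to retinoic acid, gave 168, 168 and 64.8 CPM in members and 636 ± 197 in early wells. It was 4.91-fold lower than there (log2 -2.30 ± 0.38, adjusted p = 0.00032), and not called against all other wells (-0.39 ± 0.24), where its sign turned without mouse3 (0.23 ± 0.19). Dmrtb1, a doublesex-related factor, was lower than in early and all other wells, with log2 differences of -3.20 ± 0.42 and -4.06 ± 0.29. Rhox13, an X-linked homeobox gene, was lower likewise, at -1.28 ± 0.29 and -1.01 ± 0.24. Of 8 differentiation genes that could be tested against early wells, 4 were lower (background 7.57%), and Sohlh1, which is also on the progenitor list, was higher. Against all other wells 4 of 11 were higher (background 27.8%) and 4 lower (background 36.3%), shares near those over all genes.

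The D-type cyclins differed in direction. Ccnd2, one of them, gave 314, 569 and 287 CPM in members, 80.2 ± 52.4 in early and 17.0 ± 5.76 in later differentiating wells. It was 4.05-fold higher than in early wells (log2 2.02 ± 0.33, adjusted p = 0.00024 by edgeR) and 33.7-fold higher than in all other wells. Ccnd1 took the other direction, with 38.4, 109 and 42.7 CPM in members against 153, 342 and 148 in early wells (log2 -1.79 ± 0.23, adjusted p = 2.5e-05). For each of these 2 cyclins, no member value overlapped an early value. Ccnd3 was not called against early wells (0.61 ± 0.54). Cdk4, their kinase partner, was higher in both comparisons, by 1.06 ± 0.21 against early and 1.06 ± 0.16 against other wells. Cdkn1b, which encodes the CDK inhibitor p27, gave 44, 29 and 34 UMIs in members and 0 in early wells of all 3 mice. Against a floor of 3 UMIs over the early wells it was at least 35.1-fold higher (adjusted p = 7.9e-06), and it was 26.4-fold higher than in all other wells.

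Genes of DNA replication and division were lower than in early differentiating wells. Of 23 cell cycle genes tested, 10 were lower (background 7.57%) and 3 higher (background 9.86%), namely Ccnd2, Cdk4 and Cdkn1b. Pcna, the replication clamp, gave 282, 274 and 290 CPM against 477 ± 77.2 in early wells (log2 -0.76 ± 0.13, adjusted p = 0.00039 by edgeR). Mcm2, a subunit of the replicative helicase, gave 178 ± 28.5 against 357 ± 104 (-0.96 ± 0.18, adjusted p = 0.00077). No mouse overlapped between the classes for Pcna or Mcm2. Without the wells rich in markers of Sertoli cells or spermatids, 4 of the 23 were lower, and Ccna2, Ccnb1, Ccne2 and Top2a did not (adjusted p of 0.062 to 0.12). The calls of Ccna2, Ccnb1, Ccne2, Mcm4 and Top2a were lost without mouse3 (adjusted p of 0.067 to 0.34), and those of Ccnb1 and Top2a also without mouse1 (0.070 and 0.058). Without the mouse as a block, 1 of the 23 was lower. Mitotic genes were uneven among the mice: Ccnb1 gave 175, 435 and 152 CPM, Mki67 84.0, 376 and 153, each highest in mouse2. Mki67 was not called against early wells (-0.65 ± 0.26, adjusted p = 0.0895), and passed without mouse2 (-1.11 ± 0.28, adjusted p = 0.025). The list was not lower as a whole against all other wells. There 10 of the 23 were higher (background 27.8%), Mcm2, Mcm4, Mcm6, Ccna2 and Ccnb1 among them. Another 8 were lower (background 36.3%), Pcna, Top2a and Mki67 among them. In this comparison the call of Mki67 was lost without mouse1 (adjusted p = 0.22 by edgeR) or mouse3 (0.16). It was lost also without the wells rich in Sertoli or spermatid markers (0.18). Those of Ccna2 and Ccnb1 were lost without mouse2 (0.17 and 0.27) and with the top 3% of wells (0.43 and 0.52).

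**Figure D3:**
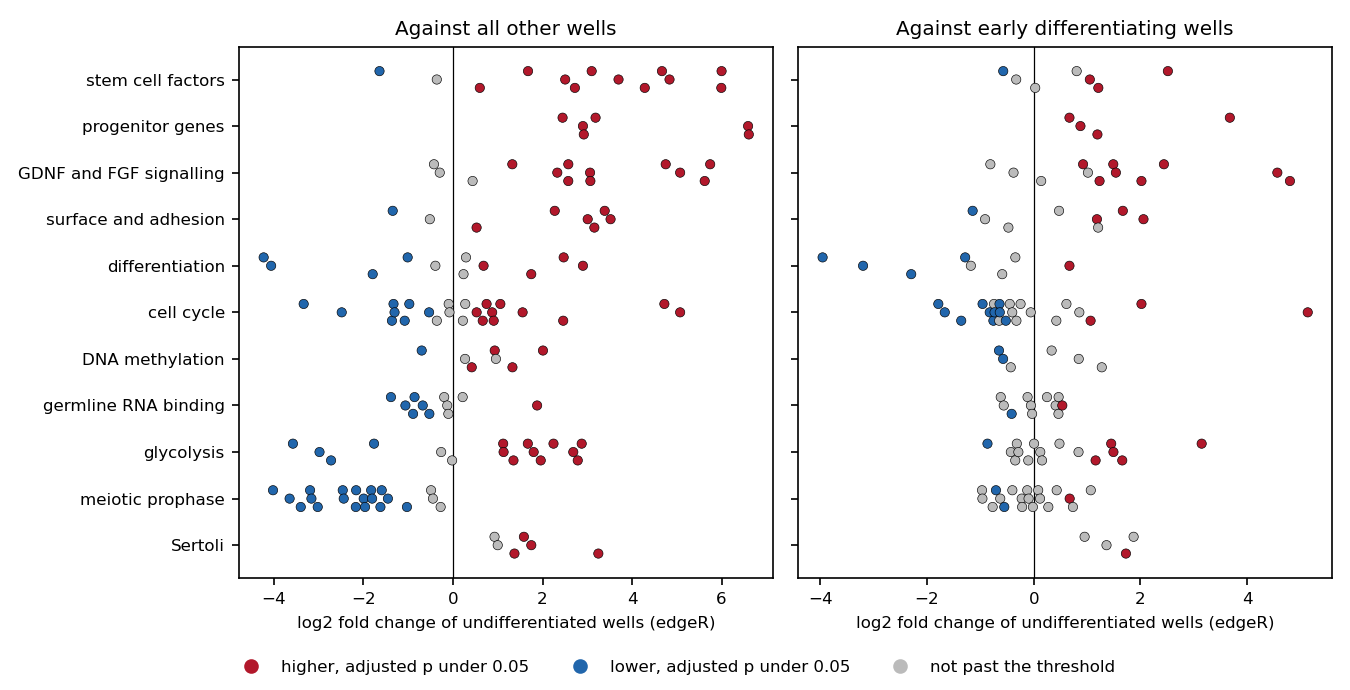
Log2 fold change of the undifferentiated wells for each gene of 11 lists that could be tested, against all other wells (left) and early differentiating wells (right); points are genes, red or blue past an adjusted p of 0.05 (edgeR), grey not. Genes with a class at 0 UMIs are drawn at their bound. GDNF and FGF signalling genes have no blue point in either panel. Of meiotic genes, 18 of 21 are blue on the left, where 36.3% of all genes tested were lower. On the right 2 of 19 are blue, where 7.57% of all genes were lower.

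Transcripts of surface proteins used to enrich these cells were partly higher. Of 12 listed, 11 were in the table and 8 could be tested in each comparison: 6 were higher (background 27.8%) and 1 lower (background 36.3%) against all other wells, and 3 higher (background 9.86%) and 1 lower (background 7.57%) against early wells. Cd9, a tetraspanin, gave 86.8, 196 and 122 CPM in members and 33.1 ± 15.3 in early wells (log2 2.06 ± 0.27, adjusted p = 2.9e-05 by edgeR), without overlap. Mcam, an adhesion molecule, was higher by 1.18 ± 0.29, a call lost without mouse3 (adjusted p = 0.27). Itga6, an integrin subunit, was higher by 1.67 ± 0.56 (adjusted p = 0.044), and the call was lost without any 1 of the mice (0.067 to 0.32). Cdh1, E-cadherin, was 10.5-fold higher than in other wells, and not called against early wells (1.21 ± 0.51, adjusted p = 0.11). Cdh2, N-cadherin, was lower in both, at -1.35 ± 0.29 and -1.15 ± 0.33. The latter call was lost without any 1 of the mice (adjusted p of 0.053 to 0.074).

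Most genes of meiotic prophase were lower than in all other wells, and their calls against early wells were near the shares over all genes. Of 21 meiotic prophase genes tested, 18 were lower than in all other wells (background 36.3%) and none higher, with a median log2 difference of -2.00. Against early wells 2 of 19 were lower (background 7.57%) and 1 higher (background 9.86%), with a median of -0.12. Sycp3, an axis protein of meiotic chromosomes, was nonetheless counted at 293, 292 and 273 CPM in members, against 1276 ± 230 in other wells. Sycp2 was higher than in early wells (log2 0.67 ± 0.14, adjusted p = 0.0027 by edgeR) and Sycp3 lower (-0.55 ± 0.13, adjusted p = 0.0066). Both calls were lost without mouse3 (adjusted p = 0.061 and 0.12), and that of Sycp3 also without mouse2 (0.12). Of 11 RNA-binding genes tested, 6 were lower than in other wells (background 36.3%), 4 were not called and 1, Dnd1, was higher (1.88, background 27.8%). Dazl, the gene of the sorting reporter, gave 1274, 1576 and 1376 CPM in members, against 1234 ± 242 in other wells and 1893 ± 227 in early wells. Against other wells it was not called, with a scaled log2 difference of -0.10 ± 0.12 although unscaled levels were higher in 3 of 3 mice, and its sign turned without the wells rich in Sertoli or spermatid markers (0.02). Against early wells it was lower (-0.41 ± 0.14, adjusted p = 0.042), a call lost without mouse2 (0.16), without mouse3 (0.17) or without those wells (0.10). Ddx4, the germ cell helicase also called VASA, was 2.09-fold lower than in other wells.

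DNA methylation genes summed to 777, 790 and 827 CPM in members, above all other wells (387 ± 25.9) and below early wells (938, 1138 and 1238) in each mouse. The list holds Dnmt3b, which chose the early wells. Dnmt3a, a de novo methyltransferase, gave 276, 317 and 299 CPM, and was 4.03-fold higher than in other wells (log2 2.01 ± 0.16, adjusted p = 5.5e-11 by edgeR) but not called against early wells (0.34 ± 0.17). Of 7 methylation genes tested against all other wells, 4 were higher (background 27.8%) and Uhrf1, the partner of the maintenance enzyme DNMT1, was lower (-0.70 ± 0.18). Against early wells none of 6 was higher and 2 were lower (background 7.57%), Dnmt1 (-0.57 ± 0.18) and Uhrf1 (-0.65 ± 0.19). Both calls were lost without mouse2 (adjusted p = 0.063 and 0.052), without mouse3 (0.12 and 0.27) and without the wells rich in Sertoli or spermatid markers (0.14 and 0.076). That of Dnmt1 was lost also without mouse1 (0.097).

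Some glycolytic genes were higher than in early wells. Of the 18 listed, 5 of 16 tested were higher (background 9.86%) and 1 lower (background 7.57%). Eno1, tested there and not called, was counted in 21, 0 and 1 member wells of mouse1, mouse2 and mouse3. Pkm, the muscle-type pyruvate kinase gene, gave 435, 830 and 883 CPM in mouse1, mouse2 and mouse3, against 220, 211 and 289 in early wells. It was 2.81-fold higher (log2 1.49 ± 0.18, adjusted p = 1.3e-05 by edgeR), and each member value lay above each early value. Slc2a1, the glucose transporter GLUT1, gave 45.5, 43.5 and 53.0 CPM in members, with 1, 0 and 9 UMIs in early wells (8.85-fold, log2 3.15 ± 0.56, adjusted p = 0.00054). Hk1, a hexokinase, was 3.16-fold higher (adjusted p = 0.00054). Ldha, lactate dehydrogenase A, was 2.23-fold higher than in early wells, a call lost without mouse2 (adjusted p = 0.18) or mouse3 (0.052), and 6.61-fold lower than in all other wells. Against all other wells 10 of 16 were higher (background 27.8%) and 4 lower (background 36.3%).

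Among the largest increases by fitted fold were several genes outside these lists. Igfbp6 (chr15:102144362-102149511 in mm10, plus strand), a binding protein of insulin-like growth factor II, gave 51, 21 and 36 UMIs in members, 1, 1 and 6 in all other wells and 0 in early, later and pachytene wells. It was 227-fold higher than in other wells (log2 7.83 ± 0.53, adjusted p = 3.1e-12 by edgeR) and at least 35.5-fold higher than in early wells. Foxf1 (chr8:121084386-121088144), a forkhead factor, gave 169, 140 and 174 CPM, against 7.32 ± 3.13 in early wells (21.6-fold) and 0 UMIs in later differentiating wells. Osbpl3, which encodes an oxysterol-binding protein, had 24, 15 and 46 UMIs in members and 1 in early wells, a ratio of 83.8 (exact interval 14.6 to 3350, counting error only). Gbp2, an interferon-inducible GTPase, had 121 UMIs in members and 3 in early wells, a ratio of 39.7 (13.3 to 195). For each of these 4 genes, no member value overlapped that of any other class. They were named for a large fold alike in sign in all 3 mice, a choice that favours such separation. The other genes with the largest increases against other wells were Upp1, Pcp4l1, Ccdc141, Gyltl1b, Tmem63c, Nefm, Gbp3 and Serpinh1, from 65.2-fold to 97.5-fold. Smoc2 and Nid1, both of the extracellular matrix, were among the largest against early wells. Smoc2 had 16, 25 and 57 UMIs against 0 in each mouse, at least 32.2-fold higher, and Nid1 had 121 against 2, a ratio of 59.6 (exact interval 16.2 to 498).

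Genes with the largest decreases by fitted fold against early wells included several counted at 0 to 3 UMIs in members. Gal, the neuropeptide galanin, had 29, 11 and 17 UMIs in early wells and 0 in all 55 members, at least 19.3-fold lower with a floor of 3 UMIs (adjusted p = 0.00022 by edgeR). Cited1, a transcriptional co-regulator, gave 15.7, 21.8 and 36.8 CPM in members against 273, 334 and 334 (12.3-fold lower, log2 -3.62 ± 0.29, adjusted p = 3.5e-07). Tbx1, a T-box factor, had 3 UMIs in members against 90, a ratio of 0.0328 (exact interval 0.00665 to 0.0991). No member value of Gal, Cited1 or Tbx1 reached the lowest early value, which their choice by fold and shared sign also favours. Beside Kit, others were Lingo1, Doc2a, Hs6st2, Plk5, Pcsk1n, Ppp1r1b and Cpne2. Against all other wells the 12 largest decreases by fitted fold all had 0 UMIs in members. Their bounds, at least 7.31-fold to 16.4-fold lower, set no rank among them or against genes with UMIs in members, such as Dmrtb1 at 16.7-fold lower. They were Ttc30a2, Gm4871, Eps8l3, Mroh2a, Caps2, Nps, Sel1l2, Spdyb, H2-DMb1, Epha10, Tmem89 and C230037L18Rik.

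Markers of Sertoli cells moved with the members. The 10 markers summed to 192, 155 and 164 CPM in members, 63.9, 19.9 and 126 in early wells and 44.0 ± 14.9 in all other wells, and none of them was at 0 in members. Of 55 members, 6 had more than 10 UMIs of the list, the highest 59, while the median was 1 and 21 had none. The deepest member of mouse1, with 168776 UMIs, had 57. Clu, a secreted chaperone abundant in Sertoli cells and itself on the list, was higher than in other wells (log2 1.75 ± 0.33), and lower without the wells rich in such markers (-2.36 ± 0.94, adjusted p = 0.025 by edgeR). Wt1 was higher than in other wells by 3.25 ± 0.46. One member of mouse1 had 198 UMIs of spermatid markers, against a median of 1. Leaving out such wells, an alternative chosen after seeing the data, kept 48 members, and 3357 and 4056 genes were then higher and lower than in other wells, and 889 and 649 against early wells. The count of stem cell factors higher than in other wells was then 10 in place of 11, that of GDNF and FGF genes stayed 10, and the latter against early wells was 7 in place of 8. For Leydig cells 7 of 8 markers were at 0 in members, Cyp11a1, Cyp17a1 and Insl3 among them, and for macrophages 2 of 4, Lyz2 and C1qb. None of 5 endothelial markers was at 0, and they summed to 8.54, 6.22 and 19.2 CPM in members, above the 2.92, 2.59 and 3.68 in other wells of the same mice. Macrophage markers summed to 1.42, 3.11 and 4.42 CPM against 1.33, 3.14 and 2.34, and 5 peritubular markers to 7.93 ± 6.13 against 6.29 ± 0.65. Whether RNA of Sertoli or endothelial cells took part in the other differences was not tested.

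Total RNA and the X chromosome were measured beside single genes. Endogenous UMIs per ERCC spike-in UMI, a measure of RNA per cell, were 145, 61.1 and 31.6 in members of mouse1, mouse2 and mouse3. The log2 ratio to other wells was -0.20, 0.41 and -0.56, so the mice did not share a sign. By medians over wells it was 0.22, 0.78 and 0.18, of 1 sign in all 3 mice, so the direction depends on the summary. Against pachytene wells it was lower in 3 of 3 mice (-0.85, -1.20 and -2.05). X-linked genes gave 2.73%, 2.43% and 2.29% of UMIs in members, 2.60%, 2.33% and 2.21% in early wells, 1.05%, 1.10% and 0.748% in all other wells and 0.149% ± 0.091 in pachytene wells. The members exceeded the early wells in 3 of 3 mice, by 0.126, 0.103 and 0.081 percentage points, a paired mean of 0.103 ± 0.023 (SD, n = 3). With 3 mice an exact two-sided permutation test cannot go below p = 0.25, so none is given. Mitochondrial genes gave 9.72% ± 4.03 of UMIs in members and 8.24% ± 3.35 in other wells.

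Genes most like the score across kept wells were ranked by Spearman's rho with it, averaged over the 3 mice, as a description in which wells share depth and library. Trim71, an RNA-binding protein of the LIN28 and let-7 circuit, led with 0.55, 0.58 and 0.53 in mouse1, mouse2 and mouse3. It gave 201, 358 and 109 CPM in members, and was 2.17-fold higher than in early wells (log2 1.12 ± 0.22, adjusted p = 0.0014 by edgeR). Trim71 was named for its rho with the score that chose the members, a choice that favours a higher level in them. Pramef12 (mean rho 0.53) and Sall4 (0.53) followed, and then came, among others, Bahcc1, Mov10, Fkbp9, Epb4.1l3, Dlk1 and Camkk2 (0.50 to 0.49). The rank does not separate neighbours: Camkk2 ranged from 0.45 to 0.55 among the mice. Dlk1, which chose the early wells, is among them.

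Within the 55 wells, Etv5 varied with Dusp6 and Egr2, and all 3 against Lin28a. The pairs named were picked from 276 after their values were seen. Etv5 and Dusp6 had a Spearman's rho of 0.69, 0.70 and 0.83 over the 21, 12 and 22 wells of mouse1, mouse2 and mouse3, and 27 wells held UMIs of both, of 32 with Etv5 and 31 with Dusp6. Etv5 also went with Egr2 (0.76, 0.55 and 0.57), and Dusp6 with Foxc2 (0.43, 0.37 and 0.80). Lin28a and Cdkn1b varied together (0.50, 0.57 and 0.78), with both counted in 29 of the 30 wells that held Cdkn1b. Some pairs were negative in each mouse: Egr2 with Lin28a gave -0.48, -0.83 and -0.60, Dusp6 with Lin28a -0.61, -0.61 and -0.56, and Etv5 with Neurog3 -0.43, -0.25 and -0.60. Of 20 wells with Neurog3 and 32 with Etv5, 7 held both. Ccnd2 went with Etv5 (0.53, 0.40 and 0.72) and against Cdkn1b (-0.43, -0.64 and -0.39). Etv5 and Lin28a are score genes, so a well low in one had to be high in others to be chosen, and the rule bears on negative values among them. Dusp6, Egr2, Foxc2, Neurog3, Upp1, Cdkn1b and Ccnd2 are not. Among these alone, Egr2 and Upp1 gave -0.59, -0.30 and -0.47, and 8 wells held both, of 22 and 32. The rule can also bear on such pairs through score genes that they vary with. Egr2 went with Etv5, as given above, and Upp1 with Lin28a (0.41, 0.18 and 0.61). The part of the rule in these negative values was not tested. Pairs with Neurog3 changed sign in mouse2, which had 2 Neurog3 UMIs: Dusp6 gave -0.41, 0.11 and -0.51, Egr2 -0.51, 0.01 and -0.28, Foxc2 -0.36, 0.11 and -0.42, and Ccnd2 -0.34, 0.30 and -0.72. Foxc2 with Cdkn1b was near 0 in mouse1 (0.004, -0.33 and -0.62). Wells of a mouse differ in depth, and no p is given.

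**Figure D4:**
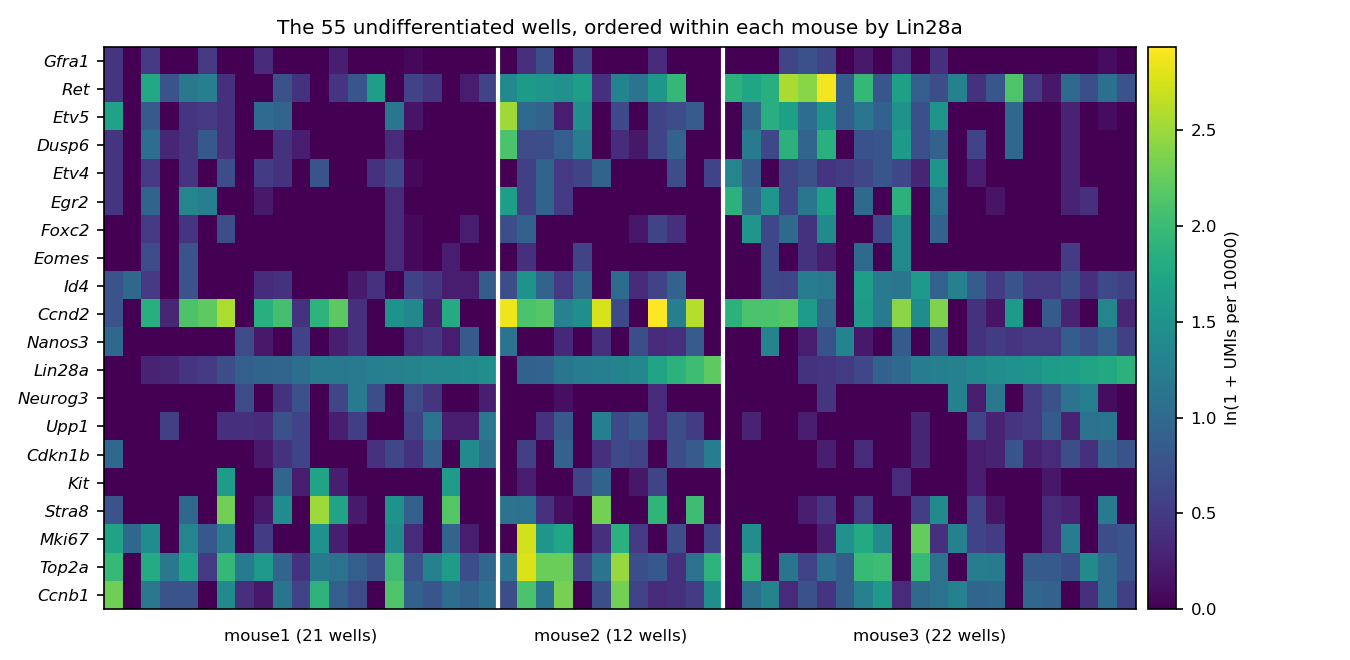
Level of 20 genes (colour, ln(1 + UMIs per 10000)) in each of the 55 undifferentiated wells (columns), ordered within each mouse by Lin28a. Wells low in Lin28a, at the left of each mouse, hold most of the Egr2 and Dusp6 signal, and Neurog3 lies mainly in the middle and to the right.

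Shares of wells with a UMI were compared after thinning each well to 3000 UMIs, as depth differs between wells. Etv5, a score gene whose share the choice of members fixed, was then counted in 12 of 55 members (21.8%, exact 95% confidence interval 11.8 to 35.0), in 2 of 55 early wells (3.64%, 0.443 to 12.5) and in 0 of 55 pachytene wells (upper limit 6.49%). Dusp6 was counted in 11 members (interval 10.4% to 33.0%) and 1 early well, and Kit in 4 members (7.27%, 2.02 to 17.6) and 36 early wells (65.5%, 51.4 to 77.8). Unthinned, Etv5 was counted in 58.2% of members, Dusp6 in 56.4% and Kit in 25.5%, at a median of 24151 UMIs, and in 3.64%, 3.64% and 16.4% of pachytene wells at a median of 53556. Intervals cover counting error over wells pooled from 3 mice and test no difference between classes, and in summed wells fewer cells with a transcript and less of it per cell cannot be told apart.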

How the data were processed

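Single cells of adult Dazl-GFP testis were profiled by SORT-Seq in 3 mice. Reads were aligned with BWA 0.7.10 to mm10, per the submitters' processing notes, and the annotation and counting tool are not given in the sources used here. The authors deposited read counts and UMI counts for each well, beside expected counts of transcripts, which by their values rise faster than the UMIs. How these were estimated is not given in the sources used here. UMI counts were used, the other tables being alternatives, with the transcript estimates rounded. Spike-ins, mitochondrial genes, eGFP and Rn45s were left out of depths. Each well received 1 sorted cell, and doublets were not removed. Well barcodes are reused between libraries by design. UMIs were summed per mouse and class and tested by edgeR 4.0.16 (quasi-likelihood, TMM scaling, filterByExpr, Benjamini-Hochberg over all genes tested), with the mouse as a block because classes share animals. On simulated data, 81.6% of 4-fold and 23.2% of 2-fold changes were recovered against all other wells (11221 genes), and 90.2% and 36.0% against early wells (9556 genes). Of those genes, 98 and 95 were changed in the former, and 93 and 89 in the latter. In the real comparisons 64.1% and 17.4% of genes were called. The rates thus describe the simulation and do not measure the power of the real tests. Positions are in mm10. Alternatives changed the UMI minimum, share taken, score, table, scaling, tool, block, plates and mice. Beyond the lists, the 12 largest called changes per direction were named, if alike in sign in all 3 mice and with at least 10 UMIs in the higher class of each, and the 10 genes most like the score. Score genes enter no test but the left-out one. The members and lists were chosen with earlier results of these data known. Results on some genes that these rules name are not reported here.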

Additional observations from a re-analysis of the deposited data

Results flagged for a closer look

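The reporter transcript eGFP, which no comparison uses, was counted with 58 UMIs over all 1228 kept wells, above the 3 counts that a count of 0 allows. Of these, 3 lay in undifferentiated wells, 1 in each mouse.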

How the results depend on the processing

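The left-out test of the 8 score genes kept its direction and call in all 142 alternative values. Counts of genes against early differentiating wells moved most. Main counts were 1076 higher and 826 lower. Higher genes numbered 686 with the top 3% of wells and 628 with the reads table, and lower genes 508 with the reads table. Leaving out 1 mouse gave 383 to 992 higher and 282 to 673 lower (602 and 495 without mouse2). The classes of a mouse are paired by animal, and without this replicate block 471 were higher and 320 lower against early wells, and 2604 and 3432 against all other wells. Stra8 against all other wells turned to 0.69 with the top 6% of wells (adjusted p = 0.011 by edgeR), 0.23 without mouse3 and 0.043 without plate 10 of mouse3. Dazl there turned to 0.039 with the transcripts table and 0.02 without wells rich in Sertoli or spermatid markers, and Clu to -2.36 without those wells. The log2 ratio of RNA per spike-in to other wells was 0.391 by medians over wells, positive in all 3 mice, against -0.117. Without thinning, shares of members with a UMI were 58.2% for Etv5, 36.4% for Neurog3, 74.5% for Id4 and 25.5% for Kit. Calls of named genes lost numbered 9 without mouse1, 19 without mouse2 and 29 without mouse3. The cause of these shifts was not tested. Depth limits single wells, most of which hold no UMI of the rarer factors.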
